A study of Homo sapiens with 30 samples.

Results

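Whether oleic acid altered the response of LX2 cells to betacellulin was measured as a difference of differences. For each gene the response to betacellulin after vehicle (Veh+BTC minus Veh+Veh) was subtracted from the response after oleic acid (OLA+BTC minus OLA+Veh), within each of 5 experiments and on log2(CPM + 1), where CPM is reads scaled to 1000000 per library. The value is called the interaction here, and a positive value says that the response was higher, or less negative, after oleic acid. It used 20 of the 30 libraries of the series, 5 in each of the 4 groups and 1 of each group in each experiment. The other 10 libraries received docosahexaenoic acid (DHA).

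All libraries came from LX2, 1 established human line that stands for activated stellate cells of the liver, so the spread is between cultures of a single line. During growth, cells received oleic acid (50 µM, carried on 20 µM albumin) for 2 cycles of 48 h, and the treatment protocol also gives 96 h of fatty acid before betacellulin. Betacellulin was given at 20 ng/ml for 72 h in DMEM with 1% serum. The treatment label of OLA+BTC lists both agents over those 72 h, so whether oleic acid was still present with betacellulin is not clear from the labels. Veh+Veh had the medium with 1% serum and neither agent, and whether vehicle wells received albumin is not stated. The labels name the experiments but do not say whether they were separate passages, so the p-values below speak only of the spread between the cultures sampled.

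Betacellulin is a growth factor of the epidermal growth factor family that binds EGFR and ERBB4 and signals through the ERK and PI3 kinase pathways. ERK activity induces immediate early transcription factors and then feedback inhibitors such as the DUSP phosphatases and Sprouty proteins. Stellate cells become the matrix-producing cells of a scarred liver when activated, and growth factors of this family are known to drive their proliferation. Oleic acid is the main monounsaturated fatty acid of the diet, is stored in lipid droplets and is a weak ligand of PPAR receptors.

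The 20 libraries held 2569815 to 9490142 reads (median 4087722.5), and a count of 0 allows 3 reads, or 0.316 to 1.17 CPM depending on the library, with counting error only. Stellate and mesenchymal markers summed to 1166 to 4162 CPM, led by COL1A1, SPARC and VIM, although DES reached at most 0.309 CPM. Among the hepatocyte and epithelial markers ALB and TTR were at 0 in all 20 libraries, while KRT18 and KRT8 gave most of a sum of 162 to 788 CPM. Endothelial markers summed to 4.54 to 53.1 CPM and leukocyte markers to 14.8 to 122 CPM, with CD3E at 0 throughout.

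One library stood apart. The OLA+BTC library of experiment 2 held 64 genes at 10 CPM or more and at least 4 times the highest of the other 19 libraries, a rule set after the values were seen. The Veh+BTC library of experiment 3 held 9 such genes, H4C3 and RN7SL1 among them, and the other 18 libraries held 0. The 64 genes included the hemoglobin chains HBD (1594 CPM against at most 103 elsewhere) and HBB (263 against at most 16.3), the immunoglobulin light chain IGKC (157 against 34.0), the leukocyte integrin ITGB2 (1533 against 310.5), the fatty acid carrier FABP4 (255 against 41.6) and SPP1 (179 against 42.0). Leukocyte markers reached their highest sum, 122 CPM, in OLA+BTC, against at most 68.9 CPM in Veh+Veh, 62.5 in Veh+BTC and 56.7 in OLA+Veh. Over 6 tested genes their median interaction was -0.81, 2.37, 1.70, -0.21 and -1.27 in experiments 1 to 5, high in experiments 2 and 3 and negative in the other 3. Of 64 genes whose interactions are given below and had an unadjusted p under 0.05, 18 had a p of 0.05 or more without this library, in a fit with 1 library fewer, and SCD came under it. Values that moved by over 1.5 times and counts of lists that changed are given with and without it.

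No gene was called for the interaction. The linear model limma, fitted to group and experiment, tested 15137 genes, and 0 (0%) had a Benjamini-Hochberg adjusted p under 0.05. The smallest adjusted p was 0.584. At an unadjusted p under 0.05 stood 1279 genes (8.45%), 673 with a positive and 606 with a negative interaction. In addition 1937 genes (12.8%) had the same sign in 5 of 5 experiments. On the reads recovered from the CPM values, edgeR called 0 genes (1269 at an unadjusted p under 0.05, smallest adjusted p 0.236), and DESeq2 called 1, the vault RNA VTRNA1-1 (adjusted p = 0.00942). A fit to the 5 per-experiment values alone called 2 genes, RNU4ATAC and H4C3 (limma adjusted p = 0.0108 for both).

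The count of 1279 leaned on single cultures. It was 817, 2104, 1968 and 751 without the Veh+BTC libraries of experiments 1, 2, 4 and 5, and 835 without the OLA+Veh library of experiment 4. Without the OLA+BTC library of experiment 2 it was 979. Leaving out experiment 1 gave 704 genes and leaving out experiment 3 gave 518, and in each of these fits 0 genes were called.

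The precision varied with the level of a gene. The median standard error of an interaction was 0.44, and the median 95% interval reached 0.91 to either side of the estimate. For 4089 genes (27.0%) the whole interval lay between -1 and 1, so on the scale of CPM + 1 an interaction of more than 2-fold fell outside it. For low genes this does not bound the change in CPM itself, which the added 1 understates. That held for 60.7% of the 3584 genes at a mean of 50 CPM or more, for 25.6% of the 6548 between 5 and 50 CPM and for 4.68% of the 5005 below 5 CPM. In simulated data with this design, 13% of genes with an interaction of 1 on the log2 scale and 77% of those with an interaction of 2 were called. The changed genes were drawn only from those at a mean of 5 CPM or more, so these shares do not cover lower genes. A p that missed the threshold therefore does not show that betacellulin acted alike in both arms.

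Of the receptors of betacellulin, EGFR could be tested. It stood at 64.8, 41.2, 18.7, 15.8 and 28.5 CPM in Veh+Veh of experiments 1 to 5, and at 31.4, 49.4, 18.6, 15.2 and 16.8 CPM in Veh+BTC. In OLA+Veh it stood at 59.2, 48.3, 15.3, 11.8 and 18.1 CPM, and in OLA+BTC at 42.5, 49.4, 14.8, 12.9 and 17.8 CPM. The 4 groups overlapped, experiments 1 and 2 were above the others in every group, and with betacellulin after vehicle EGFR was lower in 4 of 5 experiments, the most in experiments 1 and 5. Its interaction was 0.24 ± 0.36 (SE; 95% interval -0.50 to 0.97; n = 5 experiments, positive in 3; limma adjusted p = 0.861). ERBB2, the partner without a ligand of its own, averaged 35.4 ± 2.63, 42.1 ± 16.2, 32.6 ± 4.56 and 38.0 ± 4.52 CPM (SD, n = 5) in Veh+Veh, Veh+BTC, OLA+Veh and OLA+BTC. Its interaction of 0.05 ± 0.32 turned negative under several settings, as under DESeq2 (-0.0649) and edgeR (-0.0401), and was 0.113 without the OLA+BTC library of experiment 2. ERBB4 and the gene for betacellulin itself were below the level for testing, and ERBB3 averaged 1.63 CPM or less in every group.

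Of the 7 receptors and ligands tested from a list of 14, only the ligand AREG had an unadjusted p under 0.05 (14.3%, against 8.45% of all genes). Its group means were 1.09, 0.497, 0.480 and 1.72 CPM in the same order, levels close to the floor of a few reads, with an interaction of 1.12 ± 0.53 (positive in 4 of 5; limma adjusted p = 0.589). Without the OLA+BTC library of experiment 2 it was 0.88 ± 0.53 (unadjusted p = 0.107 by limma), and 0 of the 7 had an unadjusted p under 0.05. HBEGF, another ligand of EGFR, was at 25.1 to 30.0 CPM in the group means (interaction 0.40 ± 0.37). The median of the 7 interactions was 0.30, against 0.008 over all genes tested.

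Among 10 adaptors and negative regulators of these receptors, 1 had an unadjusted p under 0.05 (10.0%, against 8.45% of all genes). This was SOCS3, an inhibitor induced by cytokine signals. It stood at 12.4, 0.824, 17.1, 6.51 and 4.56 CPM in Veh+Veh and at 0.570, 2.40, 5.61, 5.71 and 1.04 CPM in Veh+BTC. After oleic acid it stood at 5.63, 1.18, 1.65, 1.40 and 2.90 CPM without and at 7.55, 3.09, 13.3, 7.89 and 0.608 CPM with betacellulin. The interaction was 1.92 ± 0.67 (limma adjusted p = 0.584) and ranged from 0.01 in experiment 2 to 3.89 in experiment 3, so experiments 1, 3 and 4 carried it. LRIG1, which promotes receptor degradation, had an interaction of 0.77 ± 0.50.

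Of 19 tested genes that ERK signalling induces, 2 were positive and 1 negative at an unadjusted p under 0.05 (15.8%, against 8.45% of all genes), and the list's median was 0.01. Without the OLA+BTC library of experiment 2 the count was 0 (6.47% of all genes). DUSP6, the phosphatase that switches ERK off, stood at 502, 94.7, 98.8, 137 and 152 CPM in Veh+Veh and at 54.7, 153, 53.2, 161 and 32.8 CPM in Veh+BTC. In OLA+Veh its values were 352, 133, 43.1, 80.4 and 138 CPM, and in OLA+BTC 374, 229, 78.5, 202 and 28.0 CPM. Betacellulin went with lower DUSP6 in experiments 1, 3 and 5 after vehicle and in experiment 5 after oleic acid, and the groups overlapped. The interaction was 3.26, 0.10, 1.73, 1.09 and -0.09 in experiments 1 to 5, with a mean of 1.22 ± 0.60 (limma adjusted p = 0.590). EMP1, a membrane protein induced by growth factors, had an interaction of 1.12 ± 0.48 (positive in 5 of 5), and the feedback inhibitor SPRY1 one of -1.23 ± 0.56 (negative in 4 of 5).

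The AP-1 and immediate early factors held the largest share of low p-values among the signalling lists, 4 of 13 (30.8%, against 8.45% of all genes), all positive. They were NR4A1 (1.40 ± 0.53), SRF (0.78 ± 0.31), KLF4 (1.47 ± 0.62) and FOS (1.11 ± 0.49), with limma adjusted p-values of 0.584. FOS was at 0.92 ± 0.50 and the count was 3 without the OLA+BTC library of experiment 2. SRF, the serum response factor, was the only 1 of the 4 above 5 CPM, with means of 402 CPM in Veh+Veh, 233 in Veh+BTC, 391 in OLA+Veh and 384 in OLA+BTC. The list's median interaction was 0.39, with medians of 0.53, 0.21, 0.90, 0.22 and -0.23 in experiments 1 to 5, so experiment 5 went the other way.

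**Figure D1:**
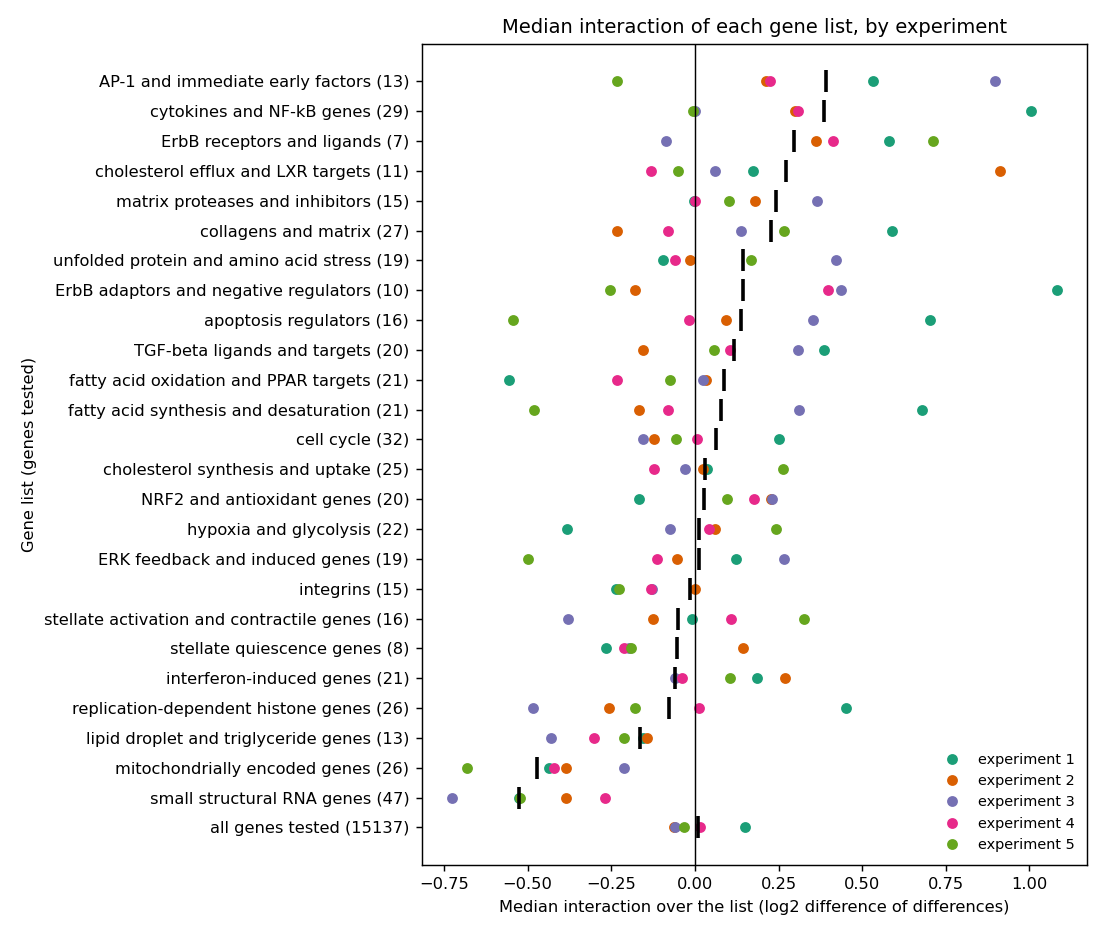
Median interaction (log2 difference of differences, x axis) of each gene list, for each of 5 experiments (coloured points) and for the mean over experiments (black bar), with the number of genes tested in brackets. The lists with the lowest medians, mitochondrially encoded genes (-0.47) and small structural RNA genes (-0.53), had negative medians in 5 of 5 experiments, and both were grouped after the values were seen. Lipid droplet and triglyceride genes were also negative in 5 of 5 (-0.43 to -0.14). The lists with the highest medians had experiments near or below 0.

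The 24 genes with the smallest p-values, 12 in each direction, were taken from genes that averaged 5 CPM or more in 1 of the 4 groups. They had unadjusted p-values of 8.25e-05 to 0.00348 and a limma adjusted p of 0.584 each. The interaction chose them, so their values are a description. The interaction had the same sign in 5 of 5 experiments for 23 of them, the exception being EEF1AKMT2. All 24 had opposite mean responses in the arms. The 12 lower genes had mean betacellulin responses of 0.45 to 1.61 after vehicle and of -1.12 to -0.29 after oleic acid, and the 12 higher genes had -1.33 to -0.56 after vehicle and 0.22 to 0.80 after oleic acid.

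**Figure D2:**
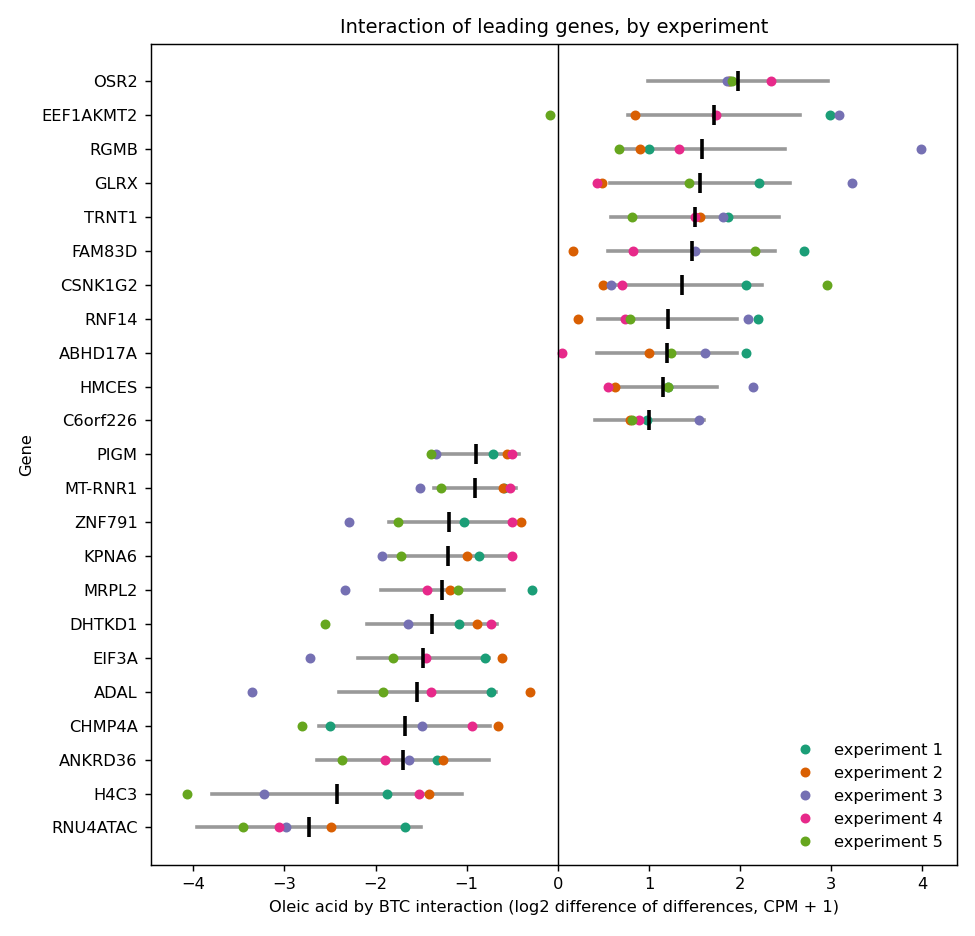
Interaction (log2 difference of differences of CPM + 1, x axis) of 23 of the 24 genes with the smallest p-values, for each experiment (coloured points), with the mean (black bar) and its 95% interval (grey line). The means ran from -2.73 for RNU4ATAC to 1.97 for OSR2, and EEF1AKMT2 was the only gene with a point on the other side of 0.

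RNU4ATAC, the U4atac RNA of the minor spliceosome, had the lowest interaction. It stood at 4.85, 5.77, 49.8, 6.08 and 0.285 CPM in Veh+Veh and at 8.55, 45.2, 159, 11.9 and 4.36 CPM in Veh+BTC. In OLA+Veh it stood at 12.3, 17.4, 58.8, 17.0 and 3.23 CPM, and in OLA+BTC at 5.79, 21.3, 22.9, 2.93 and 0.608 CPM. With betacellulin it was higher in 5 of 5 experiments after vehicle and lower in 4 of 5 after oleic acid, although experiment 3 was high in every group and the groups overlapped. The interaction was -2.73 ± 0.60 (95% interval -3.96 to -1.50).

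H4C3, a replication-dependent histone H4 gene, followed a like pattern. It was at 55.6, 134, 481, 119 and 8.56 CPM in Veh+Veh and at 194, 317, 2181, 113 and 62.3 CPM in Veh+BTC. After oleic acid it was at 115, 239, 506, 175 and 20.0 CPM without and at 109, 212, 243, 56.8 and 7.30 CPM with betacellulin. It was lower with betacellulin in all 5 experiments after oleic acid and higher in 4 of 5 after vehicle, with experiment 3 again the highest. The interaction was -2.42 ± 0.67. Of 26 histone genes of this kind that were tested, 1 was positive and 2 negative at an unadjusted p under 0.05 (11.5%, against 8.45% of all genes), with a median of -0.08.

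EIF3A, a subunit of the translation initiation factor eIF3, stood at 65.0, 78.3, 17.1, 13.7 and 8.56 CPM in Veh+Veh and at 129, 134, 70.9, 15.0 and 19.5 CPM in Veh+BTC. Its values were 83.3, 144, 37.6, 27.5 and 31.0 CPM in OLA+Veh and 94.6, 160, 22.3, 10.4 and 18.6 CPM in OLA+BTC. Experiments 1 and 2 were the highest in every group. The interaction was -1.48 ± 0.35, from -0.62 in experiment 2 to -2.72 in experiment 3.

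Other lower genes came from varied functions. DHTKD1, a mitochondrial enzyme of lysine breakdown (-1.38 ± 0.35), MRPL2 of the mitochondrial ribosome (-1.27 ± 0.33) and ADAL, an adenosine deaminase-like enzyme (-1.54 ± 0.42), were among them. PIGM of GPI anchor synthesis (-0.90 ± 0.23), the nuclear import receptor KPNA6 (-1.20 ± 0.32), CHMP4A of the ESCRT-III membrane machinery (-1.68 ± 0.46), the zinc finger gene ZNF791 (-1.20 ± 0.32) and ANKRD36 (-1.70 ± 0.46) were the others.

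OSR2, a zinc finger transcription factor of the odd-skipped family, had the highest interaction of the 24 genes, although the highest over all genes tested was 3.42. It stood at 4.95, 7.42, 9.34, 4.56 and 6.56 CPM in Veh+Veh and at 2.57, 3.50, 2.36, 1.19 and 1.45 CPM in Veh+BTC, and these groups did not overlap. After oleic acid the order was the reverse, with 2.41, 2.65, 4.13, 1.99 and 5.48 CPM in OLA+Veh and 6.54, 6.18, 5.06, 4.96 and 6.89 CPM in OLA+BTC, higher with betacellulin in all 5 experiments. The interaction was 1.88, 1.88, 1.86, 2.34 and 1.91 in experiments 1 to 5, with a mean of 1.97 ± 0.48. Its spread over experiments was far smaller than that of most genes, whose median SD was 0.74, but a choice by smallest p favours such genes.

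HMCES, which shields abasic sites in DNA, was at 185, 141, 117, 95.3 and 160 CPM in Veh+Veh and at 110, 133, 52.3, 108 and 79.1 CPM in Veh+BTC. In OLA+Veh it was at 98.1, 88.7, 73.7, 71.2 and 116 CPM, and in OLA+BTC at 136, 129, 148, 119 and 134 CPM, above every OLA+Veh library. The interaction was 1.15 ± 0.29 (95% interval 0.55 to 1.75).

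**Figure D3:**
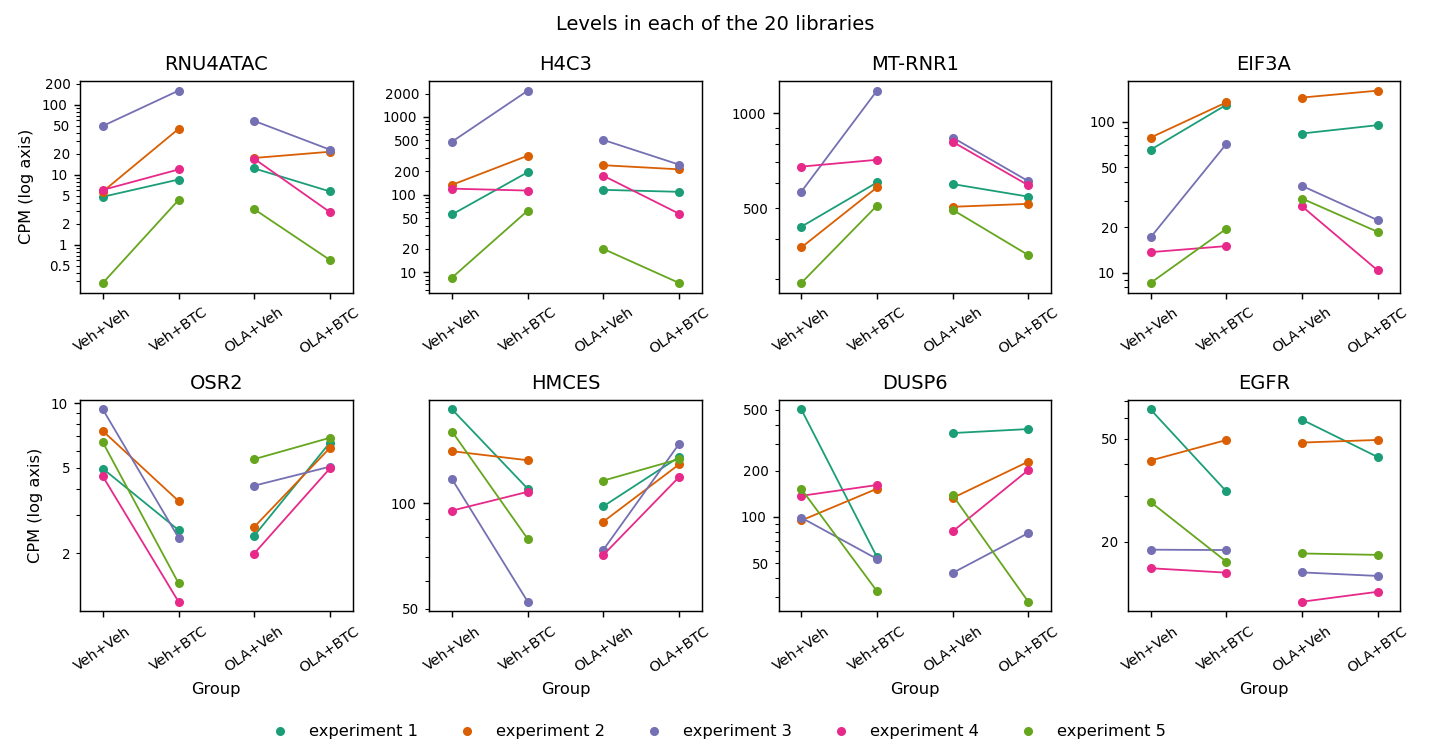
CPM (log axis) in each of the 20 libraries for 8 genes, coloured by experiment, with lines that join the libraries without and with betacellulin of an experiment. RNU4ATAC, H4C3, MT-RNR1 and EIF3A were mostly higher with betacellulin after vehicle and lower after oleic acid, OSR2 and HMCES mostly the reverse, and DUSP6 and EGFR varied by experiment.

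Other higher genes were EEF1AKMT2, a methyltransferase of elongation factor eEF1A (1.71 ± 0.46), and RGMB, a co-receptor of bone morphogenetic proteins (1.58 ± 0.45). GLRX, a glutaredoxin (1.56 ± 0.48), TRNT1, which adds the CCA end to tRNAs (1.51 ± 0.45), and FAM83D of the mitotic spindle (1.47 ± 0.45) followed. The kinase gene CSNK1G2 (1.36 ± 0.43), the ubiquitin ligase RNF14 (1.20 ± 0.38), the depalmitoylase ABHD17A (1.19 ± 0.38) and C6orf226 (1.00 ± 0.29) were also among them. Without the OLA+BTC library of experiment 2, the interactions of the 23 leading genes named here kept their signs, as they did in all 851 combinations of gene and alternative setting that were run.

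RNU4ATAC and VTRNA1-1 are short RNAs that are not messengers, and their sequences are shown because the per-experiment fit called the first and DESeq2 the second. The library kit primes on stretches of A, so such RNAs are outside what it is designed to count. How well it counts transcripts of replication-dependent histone genes such as H4C3, or mitochondrial tRNAs, was not tested. The sequences are the GENCODE release 29 transcripts, 127 and 99 bases long, written as DNA with the longest run of A in capitals (4 and 3 bases).
RNU4ATAC: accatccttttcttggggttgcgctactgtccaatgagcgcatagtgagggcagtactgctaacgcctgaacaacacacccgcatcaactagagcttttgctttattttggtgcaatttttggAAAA
VTRNA1-1: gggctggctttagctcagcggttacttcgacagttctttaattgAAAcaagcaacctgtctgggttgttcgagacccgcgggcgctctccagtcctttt

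VTRNA1-1, an RNA of the vault particle, was named after its values were seen. It stood at 0.211, 0, 0, 1.52 and 0.285 CPM in Veh+Veh, at 0.285, 1.11, 2.07, 0.952 and 0.415 CPM in Veh+BTC and at 2.14, 0.589, 4.13, 3.59 and 1.29 CPM in OLA+Veh. In OLA+BTC it had no read in any of the 5 libraries. Its highest level was 4.13 CPM, in OLA+Veh of experiment 3. The limma interaction of -2.12 ± 0.49 (adjusted p = 0.584) became -4.26 with a pseudocount of 0.25 and -0.67 with a pseudocount of 5. The DESeq2 interaction of -7.30 ± 1.47 rests on a group with no reads and is no bound.

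Small structural RNA genes as a group were taken by symbol after the values were seen (small nuclear, small nucleolar, vault, Y, 7SK and 7SL RNAs with their copies), and 47 of 3369 passed the filter. That filter asked for 1 CPM in any 5 libraries, so a member could pass through only the groups where it was high. The counts that follow are therefore a description and no test of the group. Of these, 0 were positive and 11 negative (23.4%, against 8.45% of all genes) at an unadjusted p under 0.05, and the median was -0.53 with per-experiment medians of -0.53, -0.38, -0.73, -0.27 and -0.52. The count of 11 was 9 without the OLA+BTC library of experiment 2. RN7SL1, the RNA of the signal recognition particle, averaged 2.65 ± 1.28, 22.4 ± 34.3, 6.68 ± 4.86 and 5.01 ± 5.46 CPM in the 4 groups, with an interaction of -2.35 ± 0.66 that was lowest in experiment 3. SNORD13, which guides acetylation of ribosomal RNA, had an interaction of -1.79 ± 0.68. The copies of these genes are near identical and can share reads, so single members are uncertain.

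Mitochondrially encoded genes, also grouped after the values were seen, held 26 tested of 37 under the same filter, so their counts are a description too. At an unadjusted p under 0.05 there were 0 positive and 9 negative (34.6%, against 8.45% of all genes), the median was -0.47, and per-experiment medians were -0.44, -0.39, -0.21, -0.42 and -0.68. The count of 9 was 10 without the OLA+BTC library of experiment 2. The median response to betacellulin was 0.34 after vehicle and -0.22 after oleic acid. MT-RNR1, the ribosomal RNA of the small mitochondrial subunit and 1 of the 24 genes above, was at 438, 376, 565, 677 and 291 CPM in Veh+Veh and at 604, 582, 1177, 712 and 510 CPM in Veh+BTC. It was at 597, 506, 837, 812 and 495 CPM in OLA+Veh and at 544, 517, 609, 591 and 356 CPM in OLA+BTC. It was higher with betacellulin in 5 of 5 experiments after vehicle and lower in 4 of 5 after oleic acid, with an interaction of -0.90 ± 0.22.

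Members of this group differed by kind. The large ribosomal RNA MT-RNR2 had an interaction of -0.72 ± 0.27, the tRNA genes MT-TM and MT-TY had -1.99 ± 0.60 and -1.72 ± 0.52, and MT-ATP8, an ATP synthase subunit, had -1.64 ± 0.50. Of the abundant messengers, MT-CO3 had -0.45 ± 0.32 and MT-CO2 had 0.42 ± 0.39, both subunits of cytochrome c oxidase. MT-ATP8 and its neighbours lie on shared transcripts, so the split of reads between them is uncertain.

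The share of reads from mitochondrially encoded genes moved the same way. It was 2.48, 2.19, 3.28, 3.09 and 2.22% in Veh+Veh, 2.86, 2.00, 4.38, 3.20 and 3.24% in Veh+BTC, 2.58, 2.31, 2.40, 3.29 and 2.72% in OLA+Veh and 2.63, 1.90, 2.69, 2.92 and 2.45% in OLA+BTC. The difference of differences was -0.625 ± 0.433 percentage points (SD, n = 5; negative in 5 of 5). An exact two-sided sign-flip permutation test gave p = 0.0625, the smallest that 5 experiments allow, and 0.3125 after adjustment over 5 library measures. Read total, genes detected, the share of the 10 most abundant genes and the share of ribosomal protein genes had adjusted p-values of 0.417 to 0.875. Its part in the values of single genes was not tested.

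**Figure D4:**
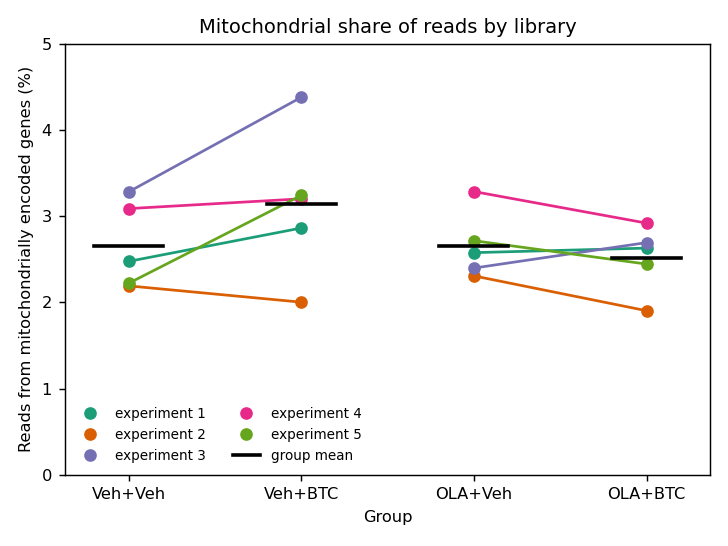
Percentage of reads from mitochondrially encoded genes (y axis) in each of the 20 libraries, coloured by experiment, with lines that join libraries without and with betacellulin and a black bar at each group mean. The group means were 2.65, 3.14, 2.66 and 2.52%, and the Veh+BTC library of experiment 3 was the highest at 4.38%.

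Of 27 collagens and matrix proteins tested, 18 had positive interactions (66.7%, against 50.6% of all genes), with a median of 0.23. At an unadjusted p under 0.05, 1 was positive (SPARC, a collagen-binding matrix protein, 0.78 ± 0.34) and 1 negative (COL11A1, -1.21 ± 0.53, at 1.15 to 3.83 CPM in the group means), or 7.41% against 8.45% of all genes. COL11A1 had an unadjusted p of 0.0612 by limma without the OLA+BTC library of experiment 2. COL1A1, the main scar collagen chain, averaged 1108 ± 695 CPM in Veh+Veh, 948 ± 429 in Veh+BTC, 882 ± 408 in OLA+Veh and 1005 ± 748 in OLA+BTC (SD, n = 5). Its interaction was 0.13 ± 0.32 (95% interval -0.52 to 0.78), -0.18 without experiment 5 and 0.31 without the OLA+BTC library of experiment 2. COL3A1 had 0.31 ± 0.38, 0.46 without that library, and COL1A2 had 0.85 ± 0.59. ACTA2, the smooth muscle actin of activated stellate cells, had 0.29 ± 0.47 (95% interval -0.67 to 1.25). In the list of 16 activation and contractile genes only the intermediate filament gene VIM had an unadjusted p under 0.05 (1.08 ± 0.45), or 6.25% against 8.45% of all genes. The list of stellate and mesenchymal markers, which shares COL1A1, COL1A2, COL3A1, ACTA2, SPARC and VIM with these values, had positive interactions in 9 of 9 tested genes, against 50.6% of all genes. Of these 9, 2 had an unadjusted p under 0.05 (22.2%), also without the OLA+BTC library of experiment 2. The list's median was 0.38, with medians of 1.34, -0.28, 0.80, 0.54 and 0.43 in experiments 1 to 5, so experiment 2 went the other way. After vehicle 4 of the 9 were lower with betacellulin at an unadjusted p under 0.05, and after oleic acid 0 were. Over all 15137 genes tested, 988 were lower at that p after vehicle and 160 after oleic acid. These counts rest on the spread shared by the fit of all 30 libraries. In fits to the libraries of each arm alone, 973 genes after vehicle and 662 after oleic acid had such a p, in either direction.

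Of 20 TGF-beta ligands and targets, 2 were positive and 1 negative at an unadjusted p under 0.05 (15.0%, against 8.45% of all genes). The negative 1 was TGFB2, a ligand that promotes fibrosis. It stood at 7.69, 24.7, 16.3, 0.651 and 2.57 CPM in Veh+Veh and at 9.98, 33.7, 42.3, 1.90 and 3.74 CPM in Veh+BTC, higher with betacellulin in all 5 experiments. In OLA+Veh it stood at 11.3, 46.5, 17.1, 2.59 and 5.48 CPM and in OLA+BTC at 5.03, 26.6, 8.80, 1.13 and 1.62 CPM, lower with betacellulin in all 5. The groups overlapped because experiments 2 and 3 were high throughout. The interaction was -1.36, -1.22, -2.21, -1.57 and -1.72 in experiments 1 to 5 (mean -1.61 ± 0.51; limma adjusted p = 0.584).

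The positive ones were LTBP2, a matrix protein of the latent TGF-beta binding family (1.19 ± 0.55), and ID3, an inhibitor of helix-loop-helix factors (1.07 ± 0.50). LTBP2 was at 0.97 ± 0.56 (unadjusted p = 0.0931 by limma) without the OLA+BTC library of experiment 2. The plasminogen activator PLAU, from the list of proteases, had 1.96 ± 1.09. Among 15 integrins, 1 was negative and 1 positive at an unadjusted p under 0.05 (13.3%, against 8.45% of all genes). ITGB1 was the negative 1 (-0.88 ± 0.36, in 5 of 5) and ITGA6 the positive 1 (1.40 ± 0.68, or 1.26 ± 0.71 and no longer under 0.05 without that library). No member of the quiescence list (8 tested) or of the protease list (15 tested) had an unadjusted p under 0.05.

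Genes of lipid metabolism, the pathway nearest to the fatty acid itself, differed by list. Of 13 lipid droplet and triglyceride genes, 0 were positive and 3 negative (23.1%, against 8.45% of all genes) at an unadjusted p under 0.05, also without the OLA+BTC library of experiment 2. These were the monoglyceride lipase MGLL (-0.90 ± 0.33), AGPAT2, which makes phosphatidic acid (-0.75 ± 0.31), and the phosphatidate phosphatase LPIN1 (-0.62 ± 0.26), with a list median of -0.16, or -0.09 without that library. G0S2, an inhibitor of triglyceride lipase, was opposite in sign (1.76 ± 0.95), or 1.19 without the OLA+BTC library of experiment 2.

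PLIN2, the coat protein of lipid droplets, depended on that library. It was at 105, 92.8, 128, 131 and 162 CPM in Veh+Veh and at 122, 83.5, 58.5, 128 and 120 CPM in Veh+BTC. It was at 141, 175, 76.8, 143 and 143 CPM in OLA+Veh and at 164, 475, 98.5, 149 and 150.0 CPM in OLA+BTC, where experiment 2 was high. The interaction was 0.73 ± 0.40 with the library and 0.39 ± 0.34 without it (limma adjusted p = 0.597 and 0.824).

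Desaturation and synthesis genes held 1 negative of 21 at an unadjusted p under 0.05 (4.76%, against 8.45% of all genes). This was the elongase ELOVL1 (-0.76 ± 0.35), which had an unadjusted p of 0.0622 by limma without that library. SCD, the desaturase that makes oleic acid, was at 1475, 1140, 549, 688 and 1211 CPM in Veh+Veh and at 430, 1208, 448, 811 and 315 CPM in Veh+BTC. In OLA+Veh it was at 911, 595, 661, 567 and 620 CPM and in OLA+BTC at 986, 659, 667, 847 and 414 CPM. Betacellulin went with a large drop in SCD only in experiments 1 and 5 after vehicle, and the interaction was 1.89, 0.06, 0.31, 0.34 and 1.35 by experiment (mean 0.79 ± 0.39, or 0.93 ± 0.40 without that library; limma adjusted p = 0.592 and 0.736). The transcription factor SREBF1, which drives fatty acid synthesis, had 1.29 ± 0.69.

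The PPAR target ANGPTL4, an inhibitor of lipoprotein lipase, averaged 6.28 ± 4.83, 8.96 ± 6.55, 15.2 ± 6.23 and 17.5 ± 9.92 CPM (SD, n = 5) in the 4 groups, an interaction of -0.23 ± 0.64 that was 0.02 without experiment 1 and -0.60 without the OLA+BTC library of experiment 2. ACAA2 of mitochondrial beta-oxidation was the only 1 of 21 oxidation and PPAR genes with an unadjusted p under 0.05 (1.07 ± 0.37), or 4.76% against 8.45% of all genes. Of 25 cholesterol synthesis genes there were 0. Among 11 cholesterol efflux genes there was 1 (9.09%, against 8.45% of all genes), SMPDL3A (1.14 ± 0.56, at 0.580 to 2.19 CPM, or 0.91 ± 0.56 and no longer under 0.05 without the OLA+BTC library of experiment 2). The list's median was 0.91 in experiment 2 but between -0.13 and 0.17 in the others.

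In the cytokine and NF-kB list, 23 of 29 interactions were positive (79.3%, against 50.6% of all genes), with a median of 0.38. The experiment medians were 1.00, 0.30, 0, 0.31 and -0.01, so experiment 1 led. The count was 15 of 29 and the median 0.20 without the OLA+BTC library of experiment 2. The list's only member with an unadjusted p under 0.05 (3.45%, against 8.45% of all genes) was negative, NFKB2 (-1.26 ± 0.44). Its partner RELB had -0.73 ± 0.36, while the growth factor CSF1 had 1.39 ± 0.69 and the chemokine CCL7 1.48 ± 0.74. The interferon list held 2 positive of 21, IFI44 (1.27 ± 0.56) and IRF7 (1.15 ± 0.55), or 9.52% against 8.45% of all genes, and 0 without the OLA+BTC library of experiment 2.

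Of 32 cell cycle genes 1 was positive (KIF20A, a mitotic kinesin, 1.22 ± 0.57) and 1 negative (CDT1, a replication licensing factor, -0.51 ± 0.25, with an unadjusted p of 0.0649 by limma without the OLA+BTC library of experiment 2) at an unadjusted p under 0.05, or 6.25% against 8.45% of all genes. The list's median was 0.06, and for 17 of 32 the interval lay between -1 and 1, against 27.0% of all genes. The proliferation marker MKI67 averaged 161 ± 147, 177 ± 137, 197 ± 160 and 161 ± 128 CPM in the 4 groups, with an interaction of -0.47 ± 0.31 that was negative in 5 of 5 experiments. E2F1, a driver of entry into S phase, had -0.59 ± 0.29.

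Of 77 tested members of 4 stress and glycolysis lists, 6 (7.79%) had an unadjusted p under 0.05, close to the 8.45% of all genes. They were 3 of 22 for hypoxia and glycolysis, the regulator PFKFB3 (0.85 ± 0.40) and the enzymes LDHA (0.74 ± 0.35) and PGAM1 (1.06 ± 0.51), 1 of 20 for the antioxidant list (TXNRD1, thioredoxin reductase, 1.55 ± 0.67), 1 of 19 for the unfolded protein list (the chaperone DNAJB9, 1.65 ± 0.78) and 1 of 16 for apoptosis (TNFRSF10B, a death receptor, 0.88 ± 0.35). All of these named genes had positive interactions and limma adjusted p-values of 0.584 to 0.589. Without the OLA+BTC library of experiment 2 only TNFRSF10B of these 6 had an unadjusted p under 0.05.

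Each arm was also tested as a contrast of its own. The arms have no library in common but share 1 estimate of the spread per gene, from the fit of all 30 libraries. After vehicle, limma called 0 genes (0%) for betacellulin, with 1539 (10.2%) at an unadjusted p under 0.05 (551 higher and 988 lower), edgeR called 0 and DESeq2 1, RN7SL1 (adjusted p = 0.0255). RN7SL1 stood at 83.3 CPM in the Veh+BTC library of experiment 3 and at 14.5 CPM or less in the other 19 libraries, so that call leaned on 1 library. The 1539 became 688, 2498, 2333 and 722 without the Veh+BTC libraries of experiments 1, 2, 4 and 5, and 1018 without the Veh+Veh library of experiment 5. Without experiments 1, 2, 3 and 5 it became 606, 2343, 958 and 751. After oleic acid, limma called 0 (0%), with 299 (1.98%) at an unadjusted p under 0.05, 139 higher and 160 lower, edgeR called 0 and DESeq2 1, VTRNA1-1 (adjusted p = 0.0140). Without experiment 5 the 299 became 590. The gap between the arms was smaller in fits to the libraries of each arm alone. These had 973 genes (6.43%) after vehicle and 662 (4.37%) after oleic acid at an unadjusted p under 0.05 by limma, with 0 called in either. The difference between the arms is the interaction itself, which called 0 genes.

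Responses to betacellulin did not repeat between experiments. Across 10132 genes at a mean of 5 CPM or more, the correlation of the response between 2 experiments had a median of -0.09 over 10 pairs after vehicle (from -0.48 to 0.66) and of -0.06 after oleic acid (from -0.46 to 0.48). That of the interaction had a median of 0.16 (from -0.12 to 0.50). Correlations are across genes, which are not independent replicates, and the responses of an experiment share its culture and depth. The median spread of a response over the 5 experiments was 0.63 on the log2 scale after vehicle and 0.50 after oleic acid.

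The mean responses of the arms ran in opposite directions more often than not. For 6327 of the 10132 genes (62.4%) they had opposite signs, and across genes they correlated at -0.37. Within single experiments the same correlation was 0.11, 0.37, -0.29, 0.15 and 0.46, so the negative value of the means was present only in experiment 3. Among the 966 of these genes with an unadjusted interaction p under 0.05, a choice that favours opposite signs, 941 had them.

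**Figure D5:**
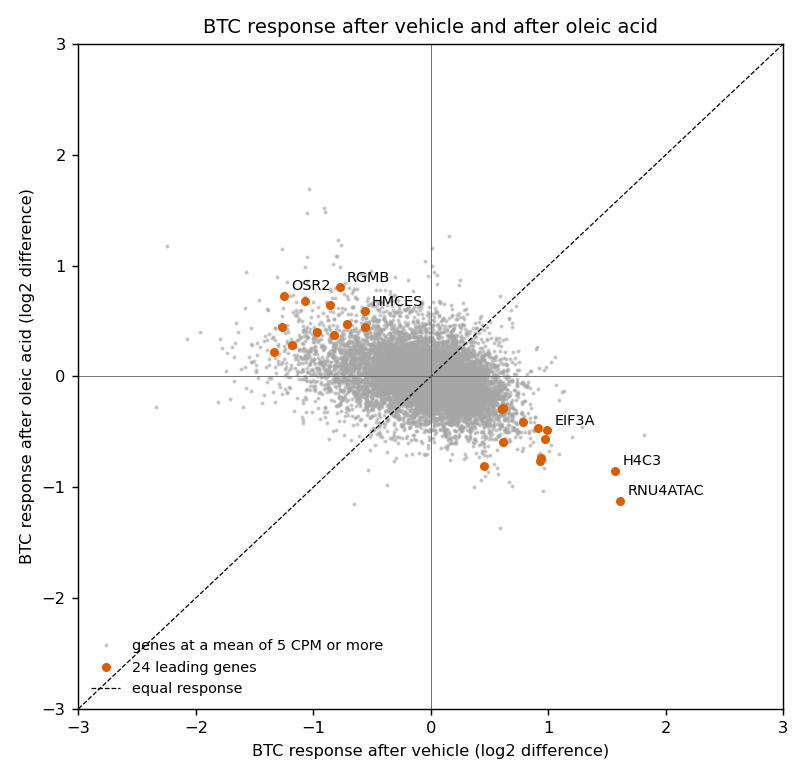
Mean response to betacellulin after vehicle (x axis) and after oleic acid (y axis), in log2 differences over 5 experiments, for genes at a mean of 5 CPM or more (grey) and the 24 leading genes (orange), with a dashed line where both are equal. The leading genes lie in the upper left and lower right quadrants, with RNU4ATAC and H4C3 farthest to the lower right.

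The DHA arm gave another measurement of the betacellulin response in libraries that enter neither the vehicle arm nor the oleic acid arm. Its mean response was positive for all 12 leading genes with a negative interaction. It was negative for 10 of the 12 with a positive one, the exceptions being C6orf226 (0.27) and TRNT1 (0.14), so it mostly had the direction seen after vehicle. It was 0.60 for RNU4ATAC, 0.40 for H4C3, -0.28 for HMCES and -0.09 for OSR2, smaller in size than after vehicle. Over the 10132 genes the DHA response had the sign opposite to the interaction for 60.0%, and over the 966 with a low interaction p for 78.4% (757 genes). Across the 10132 genes it correlated at 0.30 with the response after vehicle and at -0.17 with that after oleic acid. The direct comparison of betacellulin after oleic acid with betacellulin after DHA called 0 genes (0%) with limma, 0 with edgeR and 0 with DESeq2, with 572 (3.78%) at an unadjusted p under 0.05, or 892 without experiment 1. All 24 leading genes had a limma adjusted p of 0.999 in it.

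Averaged over both arms, a contrast independent of the interaction in this balanced design, betacellulin gave 0 called genes (0%) with limma, edgeR and DESeq2, and 387 (2.56%) at an unadjusted p under 0.05 (107 higher and 280 lower). That number became 240, 787 and 714 without the Veh+BTC libraries of experiments 1, 2 and 4, and 754, 864 and 256 without experiments 2, 4 and 5. The 5 genes with the smallest p-values in each direction all had a limma adjusted p of 1.00. The higher ones were RAI2 (0.47 ± 0.16), the noncoding RNA FENDRR (0.64 ± 0.22), TMEM229B (0.43 ± 0.16), the ribosomal protein gene RPL41 (0.37 ± 0.13) and PFKFB4, an enzyme that controls glycolysis (0.66 ± 0.24). The lower ones were WDR53 (-0.86 ± 0.25), the glycosyltransferase GCNT4 (-1.03 ± 0.30), the pseudogene RPL31P4 (-0.84 ± 0.25), the phosphatase subunit PPP2R2B (-0.84 ± 0.25) and VGLL3, a cofactor of TEAD factors (-0.66 ± 0.20).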

How the data were processed

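RNA from LX2 cultures was prepared with a 3′ tag kit (QuantSeq), per the labels' protocols, which counts transcripts near their polyadenylated end. The deposited table held CPM values that the authors had scaled to 1000000 per library, for 61597 genes. The submitters' processing notes name STAR 2.5.3a and HTSeq 0.6.0. Build and strand setting are not given in the sources used here. Coordinates are therefore left out, and overlapping or antisense genes may share reads. Symbols matched 61444 identifiers (99.8%). The values were whole multiples of 1 read for 100% of genes within 0.01 read, which gave the read totals and allowed edgeR 4.0.16 and DESeq2 1.42.0 as alternatives.

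The main test was limma 3.58.1 (trend) in R 4.3.3 on log2(CPM + 1), for the 15137 genes that reached 1 CPM in 5 or more libraries. All 30 libraries shared 1 fit with group and experiment as terms, tests were two-sided, and p-values were adjusted over all genes tested by the Benjamini-Hochberg method. Errors of interactions are standard errors of this fit, and values on this scale understate changes of low genes. The pairing by experiment comes from the labels. Deviations from group means correlated in all 30 same-experiment pairs of the 20 libraries (at least 0.13, median 0.53, against -0.19 between experiments). Deviations within a group cancel over its libraries, so the negative value follows from the positive one within experiments.

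The contrast, the 26 gene lists and the rules were chosen with earlier results of these data known. Named genes were the 12 smallest p-values in each direction of the interaction, the 5 in each direction of the averaged response, up to 4 per list and a set of 15 pathway genes. Of the genes these rules name, 3 are not reported here. VTRNA1-1, RN7SL1, SNORD13, mitochondrial genes other than MT-RNR1 and the genes that stood apart in a library were added after their values were seen. The test was tried on simulated data of 15137 genes with 200 changed, all at a mean of 5 CPM or more, in which 7 unchanged genes were called. The alternatives covered block, pseudocount, filter, scaling, depth, tool, and leaving out each experiment or library.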

Additional observations from a re-analysis of the deposited data

Results flagged for a closer look

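Each group of 5 libraries, and each set of 5 experiment values, was checked for a lowest or highest value whose gap to the next exceeded 0.71 of the range. Of 174 groups checked 17 did so. The limit flags about 1 in 20 by chance for independent, normally distributed values. Many of these groups are raw CPM values and share libraries, so that rate need not hold for them.

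In the OLA+BTC group the library of experiment 2 was apart for leukocyte markers (122 CPM in sum, group median 44.0), endothelial markers (53.1, median 17.8) and PLIN2 (475 CPM, median 150.0). Without it the PLIN2 interaction was 0.39 in place of 0.73, and among the 76 genes named with an interaction beyond 0.5 in size its ratio of 0.533 was the farthest from 1, although G0S2 moved further in log2 units, from 1.76 to 1.19. CD3E was at 0 in it, and PTPRC, the pan-leukocyte phosphatase, was at 27.8 CPM.

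Experiment 3 held the highest value of its group for RNU4ATAC in Veh+Veh (49.8 CPM), Veh+BTC (159) and OLA+Veh (58.8), and for H4C3 in Veh+Veh (481 CPM) and Veh+BTC (2181). The interaction in experiment 3 was also apart for RGMB (3.98, median 1.00), C6orf226 (1.55, median 0.89), VTRNA1-1 (-3.98, median -1.74) and MT-RNR2 (-1.46, median -0.54).

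Single values were apart for DUSP6 in Veh+Veh (502 CPM in experiment 1), SCD in OLA+Veh (911 CPM in experiment 1), VTRNA1-1 in Veh+Veh (1.52 CPM in experiment 4) and the interaction of OSR2 (2.34 in experiment 4, with the other 4 values between 1.86 and 1.91). The Veh+BTC library of experiment 2 had 18238 genes with a read, against a median of 16613.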

How the results depend on the processing

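The interaction called 0 genes in 35 of 37 alternatives. It called 2 from the per-experiment differences alone (a replicate block) and 1 with DESeq2, and DESeq2 also called 1 gene for betacellulin after vehicle and 1 after oleic acid. Without the experiment as a replicate block 0 genes were called in every comparison, and 306 were at an unadjusted interaction p under 0.05 (2409 in the per-experiment fit, 518 to 2104 over the 25 left-out settings). The averaged response and the comparison with DHA called 0 genes in all alternatives.

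Of 3543 combinations of named gene and alternative, 3522 kept direction and side of the threshold, 3 passed it (RNU4ATAC, H4C3 and VTRNA1-1) and 18 changed sign. ERBB2 was -0.0225 with median-of-ratios scaling, -0.00490 with quantile normalization, -0.0401 with edgeR and -0.0649 with DESeq2, and it ran from -0.0709 to 0.233 over left-out experiments and libraries. COL1A1 ran from -0.18 to 0.31 and ANGPTL4 from -0.72 to 0.10 over the same settings, and the cause was not tested. The mitochondrial share stayed negative, from -0.727 to -0.458 percentage points, without each experiment in turn.

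Depth limits genes near the floor, where 1 read is a large step, and 5 experiments limit the library measures.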
